A study of Homo sapiens with 8 samples.

Results

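Mitochondria make their own proteins on a dedicated ribosome, and complex I is the largest enzyme of the respiratory chain. The genes described here encode these machines from the nucleus: MRPL genes for the large subunit of the mitochondrial ribosome, MRPS genes for the small subunit, and NDUF genes for complex I. They were chosen by symbol alone, as protein-coding nuclear genes named MRPL or MRPS followed by a number, or starting with NDUFA, NDUFB, NDUFC, NDUFS or NDUFV, with the NDUFAF assembly factors left out. That gave 115 genes (49 MRPL, 28 MRPS and 38 NDUF) of 20033 protein-coding genes on chromosomes 1 to 22, X and Y. A few names do not follow function: MRPS18A and MRPS30 encode proteins of the large subunit, and NDUFC2-KCTD14 is a readthrough gene that shares its start with NDUFC2, so the 115 symbols stand for 114 separate genes at most.

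CUT&RUN peak lists were read for HA-tagged RUNX1 in HEL, a human leukemia line with traits of red cell and platelet precursors. Transduced HEL lines carried HA-tagged wild-type RUNX1 (WT), HA-tagged RUNX1-4A, HA-tagged RUNX1-4D or an empty vector, all grown in 2 µg/ml puromycin, with 2 biological replicates per line and 500000 cells per sample. Peak lists were used for WT, 4A and 4D, and the empty vector line served as the background of the peak calling. The antibody reads only the transduced protein, so the RUNX1 that all lines make themselves was not measured, and peak positions give no check of the cell identity or of the amount of tagged protein. The series title concerns phosphorylation of RUNX1 at serines and threonines, while the labels do not spell out the changes in 4A and 4D or say whether a line is a clone or a pool. The comparison between lines asks whether the forms differ in the sites they occupy.

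RUNX1 is a sequence-specific transcription factor of blood cells that binds with CBFB. Mitochondrial ribosome and complex I genes are expressed in nearly all cells, and their promoters are known as targets of NRF1, of ETS factors such as GABPA, and of YY1. Many lie head to head with a neighbouring gene and share a short stretch of DNA with it. A peak there cannot be assigned to one of the pair.

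The replicate 1 lists held 5358 to 6764 peaks and the replicate 2 lists 21122 to 25911, so each value is given per library. Read depth is unknown here. For a gene without a peak, binding was not detected in that library, and its absence is not shown. The lists also held peaks on the mitochondrial chromosome, which covered 84.6 to 92.9% of it in replicate 1 and 3.13 to 65.7% in replicate 2. The part of this in the differences between replicates was not tested.

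To show the sites at which the calls were made, promoters are given for part of the 12 highest-ranked members. These are the members whose summit fell inside the promoter in at least 5 of the 6 libraries. MRPS5 is added as the single member called in both WT and both 4A libraries and in neither 4D library. Sequences are from RefSeq on GRCh38.p14, 5′ to 3′ on the strand of the gene, from 250 bases before its start site to 50 bases after. Capitals mark matches to TGTGGT or TGCGGT (RUNX), CCGGAAG (ETS), GCGCNTGC (NRF1) or AAGATGG (YY1) on either strand.
NDUFV3 promoter (chr21:42893059-42893358, + strand): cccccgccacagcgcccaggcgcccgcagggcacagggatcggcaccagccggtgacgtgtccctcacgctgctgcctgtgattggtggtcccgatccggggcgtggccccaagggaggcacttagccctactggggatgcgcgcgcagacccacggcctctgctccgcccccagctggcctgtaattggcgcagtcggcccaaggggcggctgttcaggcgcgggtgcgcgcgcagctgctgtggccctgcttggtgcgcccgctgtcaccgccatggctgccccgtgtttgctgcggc
NDUFA2 promoter (chr5:140647581-140647880, - strand): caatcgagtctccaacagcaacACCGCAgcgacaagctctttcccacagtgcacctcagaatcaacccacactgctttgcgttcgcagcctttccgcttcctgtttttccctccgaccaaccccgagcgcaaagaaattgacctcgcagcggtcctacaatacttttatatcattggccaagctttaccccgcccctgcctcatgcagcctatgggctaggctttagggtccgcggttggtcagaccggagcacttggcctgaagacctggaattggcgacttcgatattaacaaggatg
MRPL32 promoter (chr7:42932126-42932425, + strand): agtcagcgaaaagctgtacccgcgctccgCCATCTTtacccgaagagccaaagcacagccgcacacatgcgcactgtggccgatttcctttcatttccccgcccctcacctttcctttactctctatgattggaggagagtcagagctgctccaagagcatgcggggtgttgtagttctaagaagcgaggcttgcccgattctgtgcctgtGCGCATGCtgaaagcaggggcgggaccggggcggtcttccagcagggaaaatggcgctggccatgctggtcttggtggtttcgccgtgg
MRPL24 promoter (chr1:156741039-156741338, - strand): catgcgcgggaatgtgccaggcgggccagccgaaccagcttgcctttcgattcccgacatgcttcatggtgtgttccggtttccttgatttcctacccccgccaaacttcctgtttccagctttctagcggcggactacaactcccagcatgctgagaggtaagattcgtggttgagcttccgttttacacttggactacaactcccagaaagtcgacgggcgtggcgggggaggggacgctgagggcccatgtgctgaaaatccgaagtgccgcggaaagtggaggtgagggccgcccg
MRPS18C promoter (chr4:83455808-83456107, + strand): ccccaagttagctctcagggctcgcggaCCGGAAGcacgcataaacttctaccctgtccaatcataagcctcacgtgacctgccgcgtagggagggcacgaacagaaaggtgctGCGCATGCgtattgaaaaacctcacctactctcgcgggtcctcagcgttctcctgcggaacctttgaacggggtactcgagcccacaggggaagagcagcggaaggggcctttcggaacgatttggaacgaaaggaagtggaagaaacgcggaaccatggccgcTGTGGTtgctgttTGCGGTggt
MRPS5 promoter (chr2:95121759-95122058, - strand): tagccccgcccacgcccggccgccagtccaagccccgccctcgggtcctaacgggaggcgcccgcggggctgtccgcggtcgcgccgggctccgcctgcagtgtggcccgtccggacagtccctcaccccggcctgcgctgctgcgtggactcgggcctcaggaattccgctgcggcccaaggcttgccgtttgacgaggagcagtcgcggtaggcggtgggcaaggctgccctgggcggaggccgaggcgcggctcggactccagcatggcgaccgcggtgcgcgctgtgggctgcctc

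All 6 summits lay inside the window for NDUFV3, NDUFA2 and MRPL32, and 5 of 6 for MRPL24 and MRPS18C. In MRPS18C the RUNX letters TGTGGT and TGCGGT began 28 and 41 bases after the start site, an ETS match began 222 bases before it and an NRF1 match 136 bases before it. In NDUFA2 the only match was ACCGCA, the RUNX letters TGCGGT read on the other strand, 228 bases before the start. The MRPL32 promoter held an NRF1 match 39 bases and a YY1 match 221 bases before the start and none for RUNX. No match to these letters was found in the windows of NDUFV3, MRPL24 or MRPS5, where summits lay. The called regions of these genes reach beyond the windows, and the sequence there was not read. NDUFS4, the other member called in both WT and neither 4D library, is not printed. In its promoter TGCGGT began 19 bases before the start and a YY1 match 21 bases after it.

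Promoter sequences were listed for 102 of the 115 members, with 125 start sites. RUNX letters were found in 18.4% of these promoters, beside 19.0% of 22174 promoters of all protein-coding genes. ETS letters were found in 30.4% (12.8% of all), NRF1 letters in 24.0% (14.7%) and YY1 letters in 28.8% (6.04%). Within the members, RUNX letters were present in 10 of 31 promoters (32.3%) of genes in the set of at least 1 line, and in 3 of 50 (6%) of genes with no peak in any library. Over all genes called in all 6 libraries the share with RUNX letters was 25.4%, beside 4 of 13 promoters (30.8%) of members called likewise. The 25.4% was also above the share of all promoters, and nothing particular to the members is read from this. No share over all genes was counted for the set of at least 1 line or for genes with no peak. Start sites of 1 gene can share a match, as at MRPL47, whose single ACCGCA counts for both of its start sites. The matches at MRPS18B and at an upstream start site of MRPL34 lie in promoters that the regions called at these genes do not touch. For the other letters the shares within the members are given in the order set of at least 1 line, no peak in any library. They were 35.5 and 32.0% (ETS), 25.8 and 22% (NRF1) and 35.5 and 26.0% (YY1). A match describes the letters only and shows no bound site, and no matches overlapped each other in the promoters printed above.

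Tagged RUNX1 was called at a minority of these genes in the shorter lists and at about as many as not in the longer ones. A gene counts as called in a library when any base of a peak lies within 2 kb of either gene end. Replicate 1 lists called 24 members (WT), 24 (4A) and 18 (4D). This is 20.9, 20.9 and 15.7% of them, beside 18.3, 14.8 and 13.2% of all protein-coding genes. Replicate 2 lists called 58 (WT), 57 (4A) and 50 (4D), which is 50.4, 49.6 and 43.5% beside 42.4, 42.3 and 37.6%. The members' share was 1.14 to 1.41 times that of all genes, a difference close to the background that was given no test and is not read as a property of the members.

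**Figure D1:**
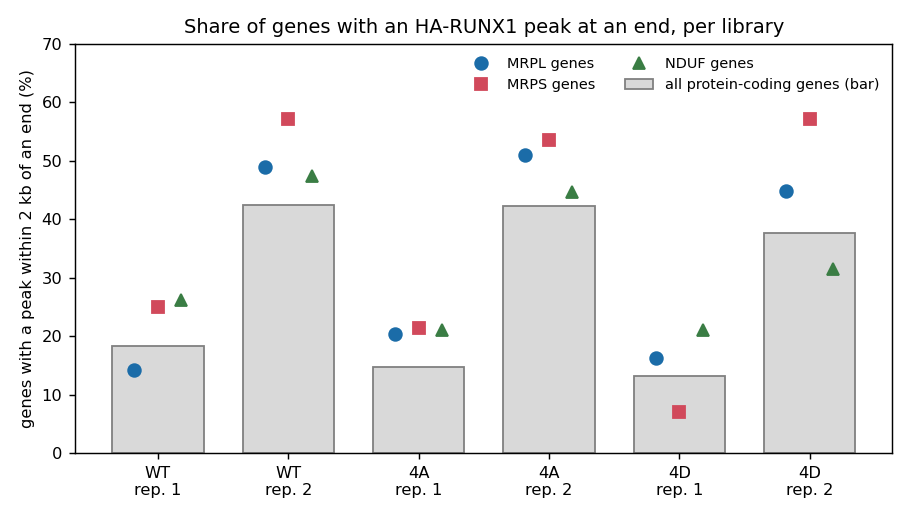
Share of MRPL (circles), MRPS (squares) and NDUF (triangles) genes with a peak within 2 kb of either gene end, in percent, for each of the 6 libraries; bars give the share of all 20033 protein-coding genes. Replicate 2 lists called more genes than replicate 1 lists in each line, and MRPS genes ranged from 7.14% in 4D replicate 1 to 57.1% in WT and 4D replicate 2.

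A line's set holds the genes at which 1 merged region was called in both of its libraries. It held 24 members in WT (20.9%, beside 17.8% of all genes), 22 in 4A (19.1%, beside 14.4%) and 18 in 4D (15.7%, beside 12.9%). Regions called in all 6 libraries lay at 14 members (12.2%, beside 9.68%). Altogether 28 members were in the set of at least 1 line, 39 had a peak in at least 1 library but were in no set, and 48 had no peak in any library. Of all genes, 48.8% had a peak in at least 1 library, and of the members 58.3%.

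The members also differed from other genes in how closely they are packed. The end of another protein-coding gene lay within 2 kb of 80 members (69.6%), against 36.3% of all protein-coding genes. Among genes with such a neighbour, the WT set held 22 of 80 members (27.5%) and 26.3% of all genes. In 4A these were 25.0% of members and 21.1% of all, and in 4D 20 and 19.2%. Among genes with no such neighbour, the set of each line held 2 of 35 members (5.71%), beside 13.0% of all such genes in WT, 10.6% in 4A and 9.34% in 4D.

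These shares are descriptions, and the difference between members and other genes of like packing was not tested. When each peak counted only for the gene whose end lay nearest to its summit, the sets held 16 (WT), 14 (4A) and 10 (4D) members. That is 13.9, 12.2 and 8.70% of members, beside 14, 11.4 and 10.2% of all genes counted likewise. Regions in all 6 libraries then lay at 6 members (5.22%, beside 7.30%).

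Regions in all 6 libraries were at 7 of 38 NDUF genes (18.4%), 5 of 49 MRPL genes (10.2%) and 2 of 28 MRPS genes (7.14%), beside 9.68% of all genes. MRPS genes were called in replicate 1 at 7 (WT), 6 (4A) and 2 (4D) of 28, and in replicate 2 at 16, 15 and 16. NDUF genes were called in replicate 2 at 18, 17 and 12 of 38 (WT, 4A and 4D), and in replicate 1 at 10, 8 and 8. Over all genes the shares were 18.3, 14.8 and 13.2% in replicate 1 and 42.4, 42.3 and 37.6% in replicate 2 (WT, 4A and 4D). In the NDUF counts, NDUFC2 and its readthrough gene share their region in all 6 libraries and count as 2 genes. The families were not compared with each other by a test.

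By mean percentile rank over the 6 lists, the highest member was NDUFV3 (98.7), an accessory subunit of the NADH-oxidising part of the enzyme. The region (chromosome 21, 42892595 to 42893821) had −log10 q of 79.9 and 147 (WT), 44.4 and 152 (4A), and 60.2 and 115 (4D). Values are in the order replicate 1, replicate 2. These stood at the 96.6th to 99.4th percentile of their lists. The median summit lay 138 bases before the NDUFV3 start (median over the 6 libraries) and 0.173 kb from the end of WDR4, which encodes a partner of a tRNA methyltransferase, so either gene could own the peak.

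NDUFA2, another accessory subunit of that part, had a region (chromosome 5, 140647419 to 140648136) with −log10 q of 61.8 and 44.5 (WT), 33.1 and 67.0 (4A), and 24.5 and 38.8 (4D). The summit lay 102 bases before its start, at the very end of TMCO6 and 0.0970 kb from IK, a splicing factor gene. Its 6 summits lay within 41 bases of each other. Among the 14 distinct regions found at members in all libraries this spread ranged from 41 to 443 bases, with a median of 141.

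NDUFS8, a core subunit with iron-sulfur clusters, was the only nuclear core gene of complex I with a region in all 6 libraries, and it had a region at each end. At the start (chromosome 11, 68030248 to 68030900) −log10 q was 16.9 and 24.4 (WT), 10.3 and 26.4 (4A), and 26.1 and 32.8 (4D). Past its 3′ end, 0.289 kb outside the gene (68036308 to 68037395), it was 25.2 and 126 (WT), 24.7 and 132 (4A), and 15.1 and 141 (4D). No other gene end lay within 2 kb of this second summit, the nearest being that of TCIRG1, a proton pump subunit, at 2.09 kb.

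The other core genes differed in their calls. Of all genes, 18.3, 14.8 and 13.2% were called in replicate 1 and 42.4, 42.3 and 37.6% in replicate 2 (WT, 4A and 4D). NDUFS1, the subunit with most iron-sulfur clusters, and NDUFS3 had no peak in any list. NDUFV1, which binds NADH and flavin, was called in the replicate 2 lists only, with −log10 q of 16.4 (WT), 6.59 (4A) and 12.0 (4D) 169 bases before its start. NDUFS7 had 1 peak, in 4A replicate 2 (−log10 q of 2.74). NDUFV2 had peaks in WT replicate 2 (15.7) and 4A replicate 1 (3.33), with a median summit 2.58 kb past its 3′ end and 0.137 kb from an end of ANKRD12. It was called there through the edges of these peaks. With summits within 2 kb required, it was called in 0 libraries.

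NDUFC2, a membrane arm subunit, shared its region (chromosome 11, 78079395 to 78080373) with its readthrough. The −log10 q was 27.4 and 81.5 (WT), 22.3 and 50.7 (4A), and 19.0 and 72.8 (4D). At NDUFA11, a membrane arm subunit too, the replicate 1 peaks stood higher in their lists than the replicate 2 peaks in each line, though ranks in lists of unequal length show no change. The percentiles were 97.1 and 78.4 (WT), 95.9 and 80.6 (4A), and 91.6 and 69.5 (4D), with the summit 0.501 kb from NDUFA11 and 0.581 kb from VMAC. At NDUFA7 the region lay past the 3′ end, 0.281 kb outside the gene and 0.0440 kb from CD320, the receptor for vitamin B12 uptake.

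**Figure D2:**
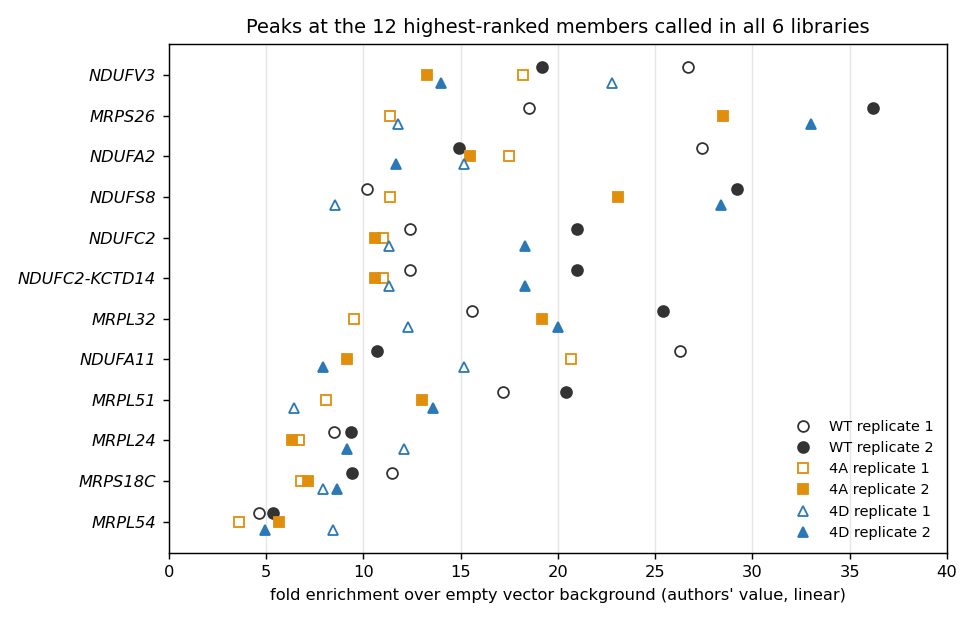
Fold enrichment over the empty vector background, the authors' value on a linear axis, of the peak at each of the 12 members ranked highest by mean percentile among those called in all 6 libraries; open symbols are replicate 1 and filled symbols replicate 2 of WT (circles), 4A (squares) and 4D (triangles). Values run from 3.61 at MRPL54 to 36.2 at MRPS26, and each list has its own scale, so a shift between symbols shows no change by itself.

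Among mitochondrial ribosome genes the highest rank was at MRPS26, a small subunit protein (chromosome 20, 3045223 to 3046699). Its −log10 q was 37.4 and 130.2 (WT), 24.7 and 118 (4A), and 17.0 and 124 (4D). All replicate 2 values stood at or above the 98.6th percentile and the replicate 1 values between 83.0 and 91.8. The summit lay 0.240 kb before MRPS26 and 0.0650 kb from GNRH2, a gonadotropin-releasing hormone gene.

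MRPL32, a large subunit protein that is matured by a mitochondrial protease, had −log10 q of 29.9 and 67.5 (WT), 17.7 and 58.2 (4A), and 18.7 and 53.0 (4D) (chromosome 7, 42931693 to 42932671). It lies head to head with PSMA2, a proteasome subunit gene, 0.150 kb from the summit, and the summit lay 51 bases before MRPL32. At MRPL51 (chromosome 12, 6492892 to 6494281) the values were 38.4 and 81.2 (WT), 11.2 and 62.0 (4A), and 6.31 and 54.5 (4D), with the summit nearer to NCAPD2, a condensin subunit gene (0.200 kb), than to MRPL51 (0.640 kb).

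MRPL24 had −log10 q of 14.7 and 27.5 (WT), 8.57 and 20.4 (4A), and 22 and 31.9 (4D) at an internal start site (chromosome 1, 156741155 to 156741550). HDGF, a growth factor gene, was the nearer gene end there, at 0.803 kb. MRPS18C had 16.9 and 21.6 (WT), 6.72 and 21 (4A), and 8.38 and 23.5 (4D) (chromosome 4, 83455583 to 83456301), between its start and HELQ, a DNA helicase gene. By mean percentile rank the lowest of those called in all lists were MRPL54 (47.3), NDUFA7 (46.3) and MRPL42 (34.5). The MRPL54 values were 5.02 and 11.5 (WT), 2.23 and 21.1 (4A), and 10.7 and 15.7 (4D). MRPL42 was the only one of the 14 without a neighbouring gene end within 2 kb, and its values were 4.99 and 7.34, 5.76 and 9.55, and 5.68 and 6.44.

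Of these 14 distinct regions, 12 had the end of another protein-coding gene within 2 kb of the summit (85.7%), beside 25.7% of the 1562 regions called in all 6 libraries near any gene end. For 1 of the 12, at NDUFC2, that neighbour is the readthrough gene. The same held for 45 of the 75 distinct regions found at members in any library.

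**Figure D3:**
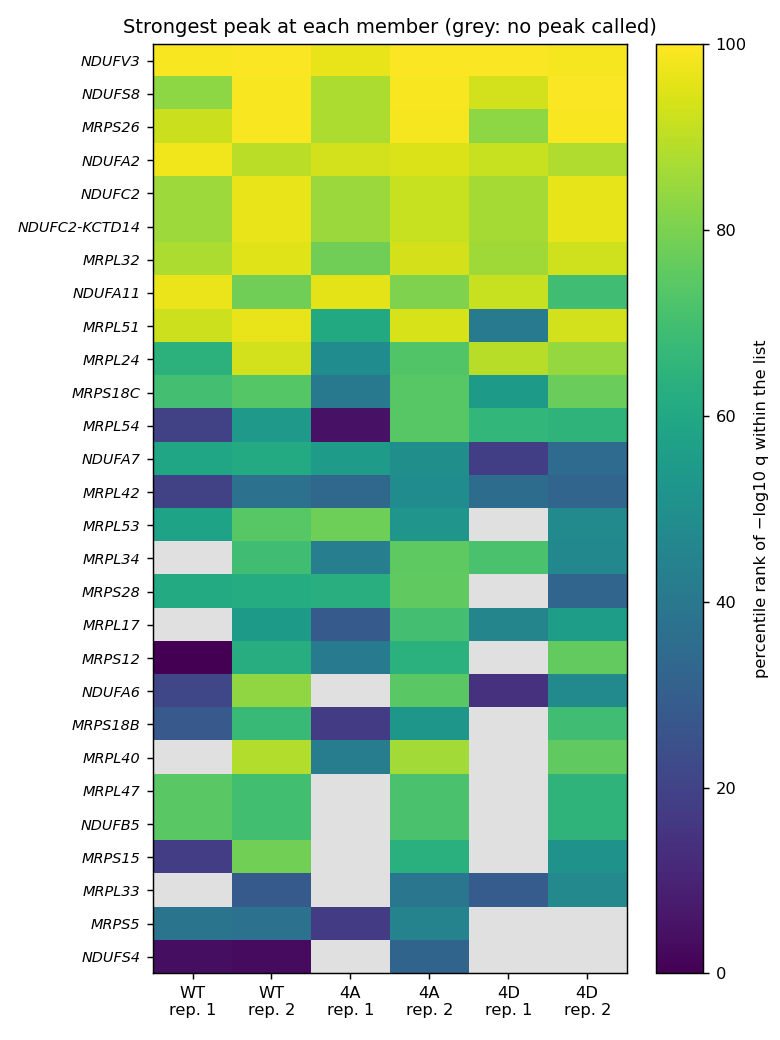
Percentile rank, within its own list, of the strongest peak within 2 kb of each of the 28 members in the set of at least 1 line (rows), in each library (columns); grey cells have no peak. The upper 14 rows are called in all 6 libraries, and most grey cells of the other rows are in replicate 1 columns.

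Single peaks at members lay on either side of the middle of their lists. The medians lay above it, by little in 4A replicate 1 and 4D replicate 2. Peaks at members numbered 24 and 61 (WT), 24 and 60 (4A), and 18 and 51 (4D), and their medians were given no test. Their median percentile rank was 62.7 and 62.4 in the WT lists, 51.7 and 55.0 in 4A, and 75.0 and 51.0 in 4D, with 50 as the middle of a list. Peaks at any gene end had medians between 48.3 and 52.3. The median fold enrichment of the peaks at members was 9.11 and 7.38 (WT), 6.91 and 5.55 (4A), and 8.98 and 5.57 (4D), beside 7.54 and 6.38, 6.82 and 5.20, and 7.05 and 5.62 at any gene end.

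The summits gathered just before the start sites. For members with a listed start site, 69.6 to 86.0% of the peaks within 2 kb of a gene end had their summit within 500 bp of a start. For all genes it was 61.3 to 70.4%. The members' share was the higher in each of the 6 libraries, with 16 of 23 (69.6%) beside 67.3% in 4A replicate 1 and 49 of 57 (86.0%) beside 62.2% in 4A replicate 2. The 6 lists share many regions and are not independent, and the difference was not tested. Among summits within 500 bp of a start, the median position was 19 to 97 bases before the start, and 68 to 104 for all genes. A summit over 2000 bp from any start, as at a 3′ end, was seen for 8.77 to 17.4% of the pairs of member and peak, and for 16.3 to 20.4% over all genes. MRPS18B was called only at its 3′ end in this way, near ATAT1. Its −log10 q there was 6.47 and 17.3 in WT, 3.73 and 10.8 in 4A, and 17.7 in 4D replicate 2.

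**Figure D4:**
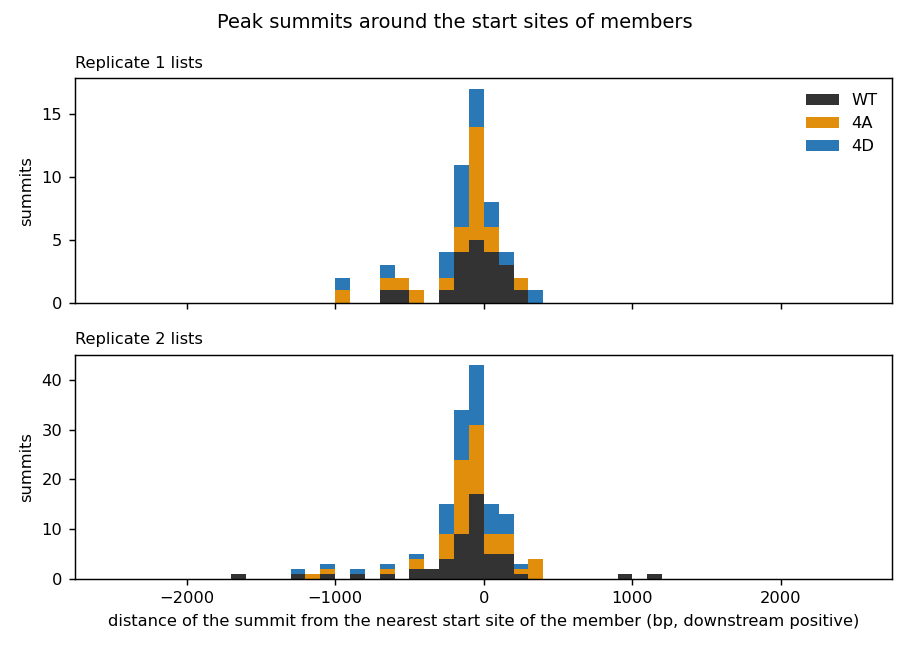
Number of peak summits by distance from the nearest start site of the member in bp, downstream positive, in bins of 100 bp, for replicate 1 (upper) and replicate 2 lists (lower), with WT, 4A and 4D stacked. Of 64 summits in replicate 1 and 167 in replicate 2, 9 and 19 lie outside the 2500 bp shown on either side, and most of the rest lie just before the start.

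Between the lines, no difference in the number of members called was detected. With 2 libraries per line the exact tests could not give a p below 0.05, so they cannot decide the question. The mean numbers of members were 41.0 ± 24.0 (WT), 40.5 ± 23.3 (4A) and 34.0 ± 22.6 (4D; SD, n = 2), an SD that holds the gap between the short replicate 1 and the long replicate 2 lists. Within each number 4D had the fewest (18 beside 24 and 24, and 50 beside 58 and 57), and so it did over all genes (2644 beside 3668 and 2970, and 7533 beside 8493 and 8465). An exact permutation test over the 6 libraries gave p = 0.733, where 0.0667 is the smallest p this design allows. With the replicate number as a block the exact p was 0.33, where 0.167 is the smallest possible. The same exact permutation test without the block gave p = 0.800 for MRPL, 0.867 for MRPS and 0.733 for NDUF genes and 0.667 for all genes, and 0.867 for each of the 5 after Benjamini-Hochberg adjustment.

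The sets of the lines overlapped widely. WT and 4A shared 19 members (79.2% of the WT set and 86.4% of the 4A set). WT and 4D shared 15 (62.5 and 83.3%), and 4A and 4D shared 16 (72.7 and 88.9%). The 14 members in all 3 sets were those called in all 6 libraries. In the WT and 4A sets but not in the 4D set were MRPL53, MRPS5, MRPS12, MRPS18B and MRPS28. For 4 of these the longer 4D list had a call, and just the shorter one lacked it.

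MRPS12, a protein of the decoding site of the small subunit, is an example. Its −log10 q was 1.60 and 14.8 (WT) and 6.81 and 14.9 (4A), and 22.6 in 4D replicate 2. The WT replicate 1 peak was among the weakest of its list, at percentile 0.266. MRPL53 had 12.6 and 21.9 in WT, 17.6 and 10.6 in 4A, and 9.78 in 4D replicate 2. MRPS28 had 13.7 and 14.7, 11.6 and 22.5, and 6.45 in 4D replicate 2.

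MRPS5, a small subunit protein near the messenger entry, was the single member called in both WT and both 4A libraries and in neither 4D library. The region (chromosome 2, 95121709 to 95122028) had −log10 q of 8.07 and 7.44 (WT) and 3.73 and 8.54 (4A). Its percentiles were between 17.2 and 44.9, in the lower part of each list. The median summit lay 59 bases before a start of MRPS5. Among all genes, 67 (0.334%) were called in both WT and neither 4D library, and 34 (0.170%) in both 4A and neither 4D library.

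NDUFS4, a subunit whose loss causes Leigh syndrome, was the other member in both WT and neither 4D list. Its −log10 q was 2.51 and 1.92 in WT and 6.05 in 4A replicate 2, so the WT peaks were among the lowest 4% of their lists. Limited to peaks with a −log10 q of at least 5, only MRPS5 stayed in this class, and then for WT alone. With all lists at 1 length neither did, and NDUFA6 was in both WT lists and neither 4A list. With the nearest gene end only, MRPS12 joined MRPS5 in being called in both WT and both 4A lists and in neither 4D list. No member was called in both 4D libraries and in neither library of WT (0.0250% of all genes) or of 4A (0.0649%). None was called in both 4A and neither WT library (0.0649%), or in both WT and neither 4A library (0.145%).

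Other members in the set of 1 or 2 lines also rested on the replicate 1 lists. MRPL17 and MRPL34 were in the 4A and 4D sets and were called in WT replicate 2, with −log10 q of 11.8 and 18.3 there. NDUFA6 was in the WT and 4D sets, with 5.47 and 31.3 in WT, 21.5 in 4A replicate 2, and 3.02 and 9.65 in 4D. MRPL47 and NDUFB5 share 1 region between their starts (chromosome 3, 179604490 to 179605015), 1 gene of the ribosome and 1 of complex I. It had 19.0 and 18.6 in WT, and 19.2 and 15.7 in the replicate 2 lists of 4A and 4D. MRPS15, whose region lay 1.75 kb from CSF3R, the receptor for granulocyte colony-stimulating factor, had 4.91 and 26.0 in WT and 14.8 and 10.4 in the replicate 2 lists of 4A and 4D.

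A peak in all 3 replicate 2 lists and in no replicate 1 list was found at 20 members (17.4%, beside 13.1% of all genes), of which 10 were MRPL, 7 MRPS and 3 NDUF genes. They included MRPL12, whose product also binds the mitochondrial RNA polymerase, MRPL58, a release factor built into the ribosome, MRPS16 and MRPS34. With no peak in any list stood 31 of 77 ribosome genes, among them MRPL11, MRPL13, MRPL15 and MRPL16. The same held for 17 of 38 complex I genes, among them NDUFA1, NDUFA9, NDUFB10 and NDUFAB1, the acyl carrier protein. Of the 115 members, 41.7% had no peak in any library, beside 51.2% of all genes.

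Most related lists held few genes, and none was compared with the members by a test. Of all genes, 17.8% (WT), 14.4% (4A) and 12.9% (4D) were in the sets, and 9.68% had a region in all 6 libraries. Of 18 complex I assembly factors, the sets held 3 (WT), 3 (4A) and 2 (4D), and NDUFAF3 was the 1 called in all 6 libraries. Of 5 ribosome proteins without an MRP symbol, AURKAIP1 and DAP3 were called in all 6, with −log10 q at AURKAIP1 of 65.7 and 215 (WT), 62.6 and 234 (4A), and 33.4 and 136 (4D). Of the other respiratory complexes, 0 of 4 complex II genes were in a set. For complex III the counts were 3, 3 and 1 of 9, for complex IV 1 of 11 in each line, and for ATP synthase 3 of 18 in each line. UQCRH, COX5A, ATP5F1B and ATP5MK had regions in all 6 libraries.

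Mitochondrial translation factors were in the sets at 2, 1 and 1 of 12 (WT, 4A and 4D). Genes of ribosome assembly and rRNA modification were there at 4, 3 and 3 of 17, with YBEY, TFB1M and MRM1 called in all lists. Regulators of mitochondrial biogenesis were in the sets at 6, 4 and 4 of 14 (42.9, 28.6 and 28.6%). Over all genes the sets held 17.8, 14.4 and 12.9%, and this list of 14 was given no test. Among these regulators ESRRA, a nuclear receptor, and TFAM, which packages mitochondrial DNA, were called in all 6 libraries. Cytosolic ribosomal protein genes, 79 in number, had 21.5% in the WT set, 16.5% in 4A and 11.4% in 4D, beside 20.9, 19.1 and 15.7% of the mitochondrial ribosome and complex I genes.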

How the data were processed

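Peaks were called per library for WT, 4A and 4D, with the empty vector line as background, per the labels' series design. The submitters' processing notes name MACS2 2.2.7.1, Bowtie2 2.4.2, cutadapt 3.4, deepTools 3.5.1 and Picard 2.25.6, with hg38 as the build; read filters and the pooling of the empty vector replicates are not given in the sources used here. In the 6 deposited lists, peak positions are on that build. The deposited files give every peak a score, its fold over background as a ratio, −log10 p and −log10 q (from 1.30 to 1.41 upwards). These authors' values served only to rank, filter and describe the peaks of 1 list. Depth is unknown, so no counting interval is given.

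Only chromosomes 1 to 22, X and Y entered, and coordinates are 1-based. Peaks of the 6 lists that overlapped by at least 1 bp were merged into 33478 regions. Gene ends came from a RefSeq table of GRCh38.p14, strand and start sites from its promoter table, which lists 15841 of the 20033 genes. Python 3.11.15 and pandas 2.3.3 were used. The gene calls were tested on simulated data. The replicates are biological per the series design. The p-value is the share of reassignments of the 6 libraries to lines that gave at least the observed variance between line means. It speaks for these libraries only.

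Named genes were the 12 members with the highest mean percentile rank of −log10 q among those called in all 6 libraries, members with a peak in each library of 1 line and none of another, the 7 nuclear core subunits (1 of them is not reported here), the first in alphabetical order of those without a peak, and the highest-ranked of the other lists. Other names and the grouping by neighbouring gene ends were chosen after their values were seen. The members and lists were chosen with earlier results of these data known. Alternatives covered the distance, summits, stricter q, list lengths, nearest gene, overlap, start side, single replicates and the replicate block; leaving out the readthrough gene was added after seeing the data.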

Additional observations from a re-analysis of the deposited data

Results flagged for a closer look

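Peaks on the mitochondrial chromosome, which encodes the 7 ND subunits of complex I that the nucleus does not, were left out of all comparisons and stood out in the lists. They covered 84.6% of that chromosome in WT replicate 1, 92.9% in 4A replicate 1 and 87.9% in 4D replicate 1. In replicate 2 they covered 12.4% in WT, 3.13% in 4A and 65.7% in 4D. The fold over the empty vector was between 5.06 and 16.6 in the replicate 1 lists and between 1.21 and 3.18 in the replicate 2 lists. In each replicate 1 list the highest −log10 q of all peaks was on this chromosome (WT 874, 4A 1366, 4D 1179, against 229.9, 167 and 145 for the highest nuclear peak). All 7 ND genes had a peak over them in the replicate 1 lists and in 4D replicate 2, 3 in WT replicate 2 and 1 in 4A replicate 2. What produced these peaks was not tested.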

How the results depend on the processing

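With all 6 lists shortened to the length of the shortest, each line's set held 10 members, and 8 were called in all 6 libraries. Within 10 kb of a gene end the counts were 35 in 4A and 28 in 4D. With the nearest gene end only they were 14 in 4A, 10 in 4D and 6 in all 6 libraries. With a single replicate the counts ran from 24 to 58 in WT, 24 to 57 in 4A, 18 to 50 in 4D and 14 to 45 over all libraries, the higher value being without replicate 1 each time. The other settings stayed within 1.5 times the counts given. The ratio of the members' share to that of all genes ran from 0.991 to 1.25 in WT, 1.06 to 1.53 in 4A, 0.855 to 1.40 in 4D and 0.715 to 1.36 for all 6 libraries, the lowest being with the nearest gene end only in WT, 4D and all 6, and with lists of 1 length in 4A. The difference between lines gave exact p from 0.33 to 1.00 over 11 alternatives; 0.33 was with the replicate block, where 0.167 is the smallest possible. It was not run with a single replicate, which leaves no spread. Libraries of the same number deviated together over the members (correlations 0.516 to 0.588), as their list lengths do, but the labels do not say what a number marks. With 2 libraries per line the deviations of replicate 1 and replicate 2 mirror each other, so both numbers give the same correlations. Every replicate 2 list is also the longer one, so the positive sign decides nothing. The 20 named members kept their number of libraries in 124 of 158 settings. Depth limits each missing call.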
